A study of Mus musculus with 13 samples.

Results

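The 8 genes described here are those of myelinating and non-myelinating Schwann cells that were listed by name: Sox10, Mbp, Mag, Pmp22, Prx, Gfap, Ngfr and S100b. They are 8 of the 54532 genes in the count table, and all 8 passed the filter on low counts that left 15811 genes for testing. They were chosen by function and by 1 measured value, the lower level of Gfap in the Ad-FAM3A aortas, so that difference is given as a description and was not tested. The study asked whether FAM3A, a cytokine-like protein, changes the course of abdominal aortic aneurysm. RNA was sequenced from 13 whole aortas, each 1 library. All 13 mice were ApoE knockout (ApoE-/-) and received angiotensin II (AngII), the peptide that brings on aneurysm in this strain, from a subcutaneous pump. Per the study's methods the pumps released 1000 ng/kg/min for up to 28 days, starting at 10 weeks of age. The methods name male or female mice for this model as a whole, and the paper does not state the sex of these 13. The 6 Ad-sham mice received empty adenovirus and the 7 Ad-FAM3A mice received adenovirus that carries mouse Fam3a, tagged with FLAG, in 5 tail vein injections. The methods name both an EF1A construct and a CMV vector, so the promoter is not settled here. No aorta came from a mouse without AngII or without virus, so both groups share the knockout, the pump and the vector.

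Schwann cells are the glia of peripheral nerve. Some wrap single large axons in myelin, a stack of membrane held together by a few abundant proteins, while others, called non-myelinating or Remak cells, hold bundles of thin axons without myelin. The aorta is supplied by thin sympathetic and sensory axons in its adventitia, and small nerves and ganglia lie in the tissue around it. Sox10 is the transcription factor that specifies the lineage and keeps the myelin genes on. In whole tissue, fewer cells of a type and less RNA per cell cannot be told apart, so every level below is that of an aorta and not of a cell.

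The aortas held between 14481179 and 19797407 counted reads. Fam3a, the delivered gene, averaged 24.4 ± 4.27 CPM (SD, n = 6) in the Ad-sham group, where CPM is the count per 1000000 reads of a library scaled by its TMM factor. It averaged 24.0 ± 4.64 CPM (SD, n = 7) in the Ad-FAM3A group, and the log2 fold change of -0.03 had an adjusted p of 0.971 by edgeR. The delivered gene therefore does not check the labels, and each direction below refers to the library labelled Ad-FAM3A or Ad-sham. The aortas also differed in how much neuron RNA they held. The mean log2 CPM of 16 sympathetic neuron genes ran from -0.39 to 3.26 in 5 aortas and from 5.01 to 7.20 in the other 8. This is the largest gap with at least 2 aortas on each side, but at 0.231 of the range it does not make separate clusters by the rule used for correlations, so the split is a working one. These are called neuron-poor (Ad-sham2 and 4, Ad-FAM3A2, 4 and 5) and neuron-rich (4 of 6 Ad-sham and 4 of 7 Ad-FAM3A aortas), a split made after seeing the data. Ad-FAM3A6 and 7 stood apart by B cell transcripts, whose summed level reached 16089 CPM against at most 361 CPM in Ad-sham aortas.

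The start regions of 6 of the 8 members matched a RefSeq promoter entry (GRCm38.p6), and Sox10 and Mbp are named only. The windows run from 250 bases before to 50 bases after an annotated start, on the gene's own strand from 5′ to 3′. They were searched on both strands for ACAANG, a loose form, with any base at N, of the core letters that Sox family proteins are known to contact. No other motif was searched. It occurred in 13550 of 32851 windows of 300 bases (41.2%), and in 2 of the 6 members at the start nearest to the deposited 5′ end. The windows below are shown because they hold the members with matches and the member named for its group difference, with each match in capitals: Mag at chr7:30914814-30915113, S100b at chr10:76253586-76253885 and Gfap at chr11:102897151-102897450.
Mag: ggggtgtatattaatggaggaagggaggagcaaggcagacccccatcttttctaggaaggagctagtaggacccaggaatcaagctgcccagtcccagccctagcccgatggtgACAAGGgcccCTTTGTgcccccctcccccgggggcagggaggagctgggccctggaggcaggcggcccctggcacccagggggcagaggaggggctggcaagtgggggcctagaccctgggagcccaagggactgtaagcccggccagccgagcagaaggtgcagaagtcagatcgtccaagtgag
S100b: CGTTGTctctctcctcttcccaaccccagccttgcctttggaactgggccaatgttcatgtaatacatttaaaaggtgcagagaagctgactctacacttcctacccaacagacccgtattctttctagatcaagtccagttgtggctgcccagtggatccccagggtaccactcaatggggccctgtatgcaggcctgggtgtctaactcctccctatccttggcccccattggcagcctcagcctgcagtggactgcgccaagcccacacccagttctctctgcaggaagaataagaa
Gfap: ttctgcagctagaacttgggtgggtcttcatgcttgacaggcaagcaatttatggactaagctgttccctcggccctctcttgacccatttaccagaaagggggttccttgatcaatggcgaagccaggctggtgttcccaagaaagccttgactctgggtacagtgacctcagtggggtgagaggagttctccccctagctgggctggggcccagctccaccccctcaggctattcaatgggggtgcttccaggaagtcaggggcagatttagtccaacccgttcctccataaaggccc
The Mag window held 2 matches on opposite strands, at offsets -136 and -126 from the start. The S100b window held 1, at offset -250, the first bases of the window. The Gfap window held none, and its RefSeq start lies 3712 bases inside the deposited gene. The windows of Prx, Ngfr and Pmp22 held none either. A match is a description of letters and not a binding site, and a window without one says only that these letters are not in it.

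Schwann cell RNA was present in every aorta. Besides Sox10, the Schwann cell cadherin gene Cdh19 ran from 5.90 to 65.7 CPM and Erbb3, the neuregulin receptor gene of the lineage, from 3.504 to 26.8 CPM. Of the peripheral myelin genes, Pmp2 had no read in any aorta. Genes that define the myelinating glia of the brain were absent or nearly so: Opalin and Olig2 had no read in any aorta, Mobp and Nkx2-2 had at most 1 read and Mog at most 7. Myrf, a myelin transcription factor that other tissues also express, ran from 10.03 to 26.13 CPM. Melanocytes also use SOX10, and their pigment genes were low but not all absent, with at most 3 reads of Tyrp1 in an aorta, 11 of Tyr, 15 of Mlana, 27 of Dct and 43 of Pmel. In Ad-FAM3A2 Dct, at 1.66 CPM, exceeded Sox10, at 1.41 CPM. Mag, which brain and peripheral glia share, was thus measured in tissue with next to no reads of the genes that define brain myelin.

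Per kilobase of gene length, in FPKM rebuilt for each aorta from counts and the deposited gene lengths, Pmp22 was highest, with a median of 70.9 over the 13 aortas. Ngfr followed at 20.4, S100b at 11.6, Mbp at 6.30, Sox10 at 2.93, Prx at 1.995, Mag at 0.270 and Gfap at 0.262 FPKM. The order of neighbours was firm in parts. Mbp stood above Sox10, and Prx above Mag, in 13 of 13 aortas, S100b above Mbp in 12 and Pmp22 above Ngfr in 11. Ngfr exceeded S100b in 8 of 13 aortas, Sox10 exceeded Prx in 8 and Mag exceeded Gfap in 5, so these neighbours did not keep their order across aortas. In the authors' mean FPKM per group, Gfap was 0.196 in Ad-FAM3A and 0.546 in Ad-sham, and Sox10 was 2.62 and 4.40.

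Sox10 (ENSMUSG00000033006, GRCm38 chromosome 15, 79154908 to 79165240, minus strand) varied more between aortas than between groups. In Ad-sham aortas its lowest, median and highest levels were 3.58, 10.4 and 30.5 CPM, and in Ad-FAM3A aortas 1.41, 8.93 and 14.3 CPM. Ad-sham3 and Ad-sham5 lay above every Ad-FAM3A aorta, Ad-FAM3A2 and 5 lay below every Ad-sham aorta, and the other aortas overlapped. For Sox10 the log2 fold change came to -0.75 with a standard error of 0.59 (adjusted p = 0.830, edgeR's quasi-likelihood test). It was -0.35 without Ad-sham5, the aorta with the most Sox10. The 8 neuron-rich aortas held 8.33 to 30.5 CPM and the 5 neuron-poor ones 1.41 to 6.48 CPM, so all neuron-rich aortas were higher in Sox10 than all neuron-poor ones. The share of all genes that separate across this split is not given here. For Sox10, and for Ngfr below, the separation is therefore a description only.

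Mbp (ENSMUSG00000041607), which encodes the basic protein that seals the inner faces of the myelin membrane, had the lowest, median and highest levels of 33.5, 56.9 and 102 CPM in Ad-sham and 16.3, 40.3 and 77.0 CPM in Ad-FAM3A aortas. Ad-FAM3A2, 4 and 5 were below all Ad-sham aortas, and Ad-sham3 and 5 were above all Ad-FAM3A aortas. These low libraries were also the neuron-poor Ad-FAM3A aortas, and Mbp differed by -0.97 among the neuron-poor and by -0.27 among the neuron-rich aortas on the log2 scale. Over all aortas the log2 difference of Mbp was -0.56 ± 0.39 (standard error; adjusted p = 0.819, edgeR). With the neuron list as a covariate it was -0.55, and without Ad-sham5 it was -0.36. Mbp gives rise to transcripts with and without myelin protein from different starts, and a gene count adds them together.

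Mag (ENSMUSG00000036634, chromosome 7, 30899176 to 30914873, minus strand), a glycoprotein of the membrane next to the axon, was close to the limit of detection. Its lowest, median and highest levels were 0.667, 1.35 and 2.24 CPM in Ad-sham and 0, 1.10 and 2.76 CPM in Ad-FAM3A aortas, where the 0 stands for no read in Ad-FAM3A5, which allows up to 3 reads. Ad-FAM3A4 had 3 reads, while Ad-FAM3A1 had 46 and Ad-sham5 had 48. The groups overlapped over most of their range, with a log2 fold change of -0.30 (standard error 0.66, adjusted p = 0.927 by edgeR). It was -0.06 without Ad-FAM3A5, -0.67 without Ad-FAM3A1, -0.98 with limma-voom and -0.86 with the replicate block, so its size is not settled. The limit set by 3 reads covers counting error only.

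Pmp22 (ENSMUSG00000018217, chromosome 11, 63128982 to 63159547, plus strand), a membrane protein of compact myelin that many other cells make at lower levels, was the steadiest member. It ran from 141 CPM through a median of 181 to 209 CPM in Ad-sham and from 104 through 167 to 241 CPM in Ad-FAM3A aortas. Both the lowest aorta, Ad-FAM3A6, and the highest, Ad-FAM3A3, were in the Ad-FAM3A group, and the Ad-sham range lay inside the Ad-FAM3A range. The groups differed by -0.09 on the log2 scale, with a standard error of 0.19 and an approximate 95% interval from -0.46 to 0.27 (adjusted p = 0.918, edgeR). Between its lowest and highest aorta Pmp22 differed 2.32-fold, against 21.6-fold for Sox10.

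Prx (ENSMUSG00000053198, chromosome 7, 27499324 to 27520214, plus strand) encodes periaxin, a scaffold between the myelin sheath and the basal lamina. Its lowest, median and highest levels were 4.96, 12.0 and 25.1 CPM in Ad-sham and 4.34, 9.88 and 17.7 CPM in Ad-FAM3A aortas. Only Ad-sham5 lay above all Ad-FAM3A aortas, and the other aortas overlapped. Between the groups Prx differed by -0.36 on the log2 scale (adjusted p = 0.852, edgeR), with a standard error of 0.35. The difference was -0.06 when Ad-sham5 was left out. Prx shares 300 of its exon bases with Gm15541, an antisense gene on the other strand, and since no source states a strand setting for the counting, reads in those bases cannot be assigned to one of them.

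Gfap (ENSMUSG00000020932, chromosome 11, 102887336 to 102900912, minus strand) encodes the glial fibrillary acidic protein, an intermediate filament of non-myelinating Schwann cells, of satellite glia and of astrocytes. It was read at low counts and had the widest difference between groups of the 8. Ad-sham aortas had 10, 20, 31, 27, 94 and 63 reads from replicate 1 to 6, and Ad-FAM3A aortas had 15, 18, 18, 14, 6, 9 and 12 from replicate 1 to 7. Ad-sham5 and 6 were far above the other 11 aortas, and Ad-sham1 lay within the Ad-FAM3A range. In CPM the lowest, median and highest levels were 0.661, 1.84 and 4.39 in Ad-sham and 0.441, 0.878 and 1.27 in Ad-FAM3A, with means of 2.33 ± 1.53 (SD, n = 6) and 0.834 ± 0.296 (SD, n = 7). All 7 Ad-FAM3A aortas were below the Ad-sham median, 4 of 6 Ad-sham aortas were above every Ad-FAM3A aorta, and the groups overlapped through Ad-sham1 and 2. The log2 fold change was -1.48 (standard error 0.43), or 2.79-fold lower in Ad-FAM3A, given without a test. Without Ad-sham5 and 6, a comparison added after seeing the data, it was -0.74. It was -1.67 among neuron-rich and -0.81 among neuron-poor aortas.

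Gfap was also read relative to Sox10. Per length, the ratio of Gfap to Sox10 had a median of 0.1503 in Ad-sham (0.0600 to 0.249) and 0.0674 in Ad-FAM3A aortas (0.0434 to 0.569). Ad-FAM3A2, whose Sox10 was the lowest of all aortas, had the highest ratio, and the other Ad-FAM3A ratios reached 0.209. The groups overlapped over the whole Ad-sham range. Of the genes fixed as markers of astrocytes and satellite glia, which may also make Gfap, Aqp4 was too low to test. The summed level of that list ran from 305 to 479 CPM in Ad-sham and from 228 to 326 CPM in Ad-FAM3A aortas, and 3 of its 5 tested genes were below 0 in log2 fold change: Aldh1l1, a folate enzyme gene, at -0.74, the glutamate transporter gene Slc1a3 at -0.61 and the gap junction gene Gja1 at -0.25. The other 2, the potassium channel gene Kcnj10 and the glutamate transporter gene Slc1a2, were at 0.07 and 0.55. Before adjustment Aldh1l1 and Slc1a3 had a p of 0.00493 and 0.0415 by edgeR. None of the 5 was called after adjustment, and several are also made outside glia. As a mean of log2 CPM the list ran from 2.74 to 4.10 in Ad-sham and from 2.37 to 3.94 in Ad-FAM3A aortas. Pearson's r of Gfap with that mean was 0.10 over the 11 aortas other than Ad-sham5 and 6 (permutation p = 0.753). Within the neuron-rich aortas it was -0.06. The part of such cells in the Gfap difference was not tested.

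Ngfr (ENSMUSG00000000120, chromosome 11, 95568818 to 95587735, minus strand) encodes the low-affinity neurotrophin receptor p75, which non-myelinating Schwann cells and sympathetic neurons both carry. It varied most of the 7 members detected in every aorta, 94.6-fold between the lowest and highest aorta. Its lowest, median and highest levels were 4.04, 112 and 254 CPM in Ad-sham and 6.33, 70.0 and 382 CPM in Ad-FAM3A aortas. The levels fell into separate clusters that cut across the virus groups. The 5 neuron-poor aortas held 4.04 to 9.66 CPM and the 8 neuron-rich aortas 70.0 to 382 CPM. The log2 fold change between the virus groups was -0.48 with a standard error of 1.04 (adjusted p = 0.924 by edgeR), and the approximate 95% interval from -2.53 to 1.56 leaves both directions possible. It was -0.14 without Ad-sham3, -0.19 without Ad-sham5 and -1.64 without Ad-FAM3A3, the aorta with the most Ngfr. Ngfr was at -1.30 with the adipocyte list as a covariate and -0.27 with the neuron list.

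S100b (ENSMUSG00000033208, chromosome 10, 76253853 to 76261159, plus strand) encodes a calcium-binding protein used as a histological marker of Schwann cells, and adipocytes are known to make it too. Its lowest, median and highest levels were 11.55, 21.6 and 33.25 CPM in Ad-sham and 10.04, 16.6 and 40.3 CPM in Ad-FAM3A aortas. The highest aorta was Ad-FAM3A2, one of the 2 aortas with the least Sox10, and the Ad-sham range lay inside the Ad-FAM3A range. S100b differed by -0.13 on the log2 scale, with a standard error of 0.31 (adjusted p = 0.932, edgeR). The difference was 0.02 without Ad-sham1 and 0.27 with the adipocyte list as a covariate, so no direction can be given.

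**Figure D1:**
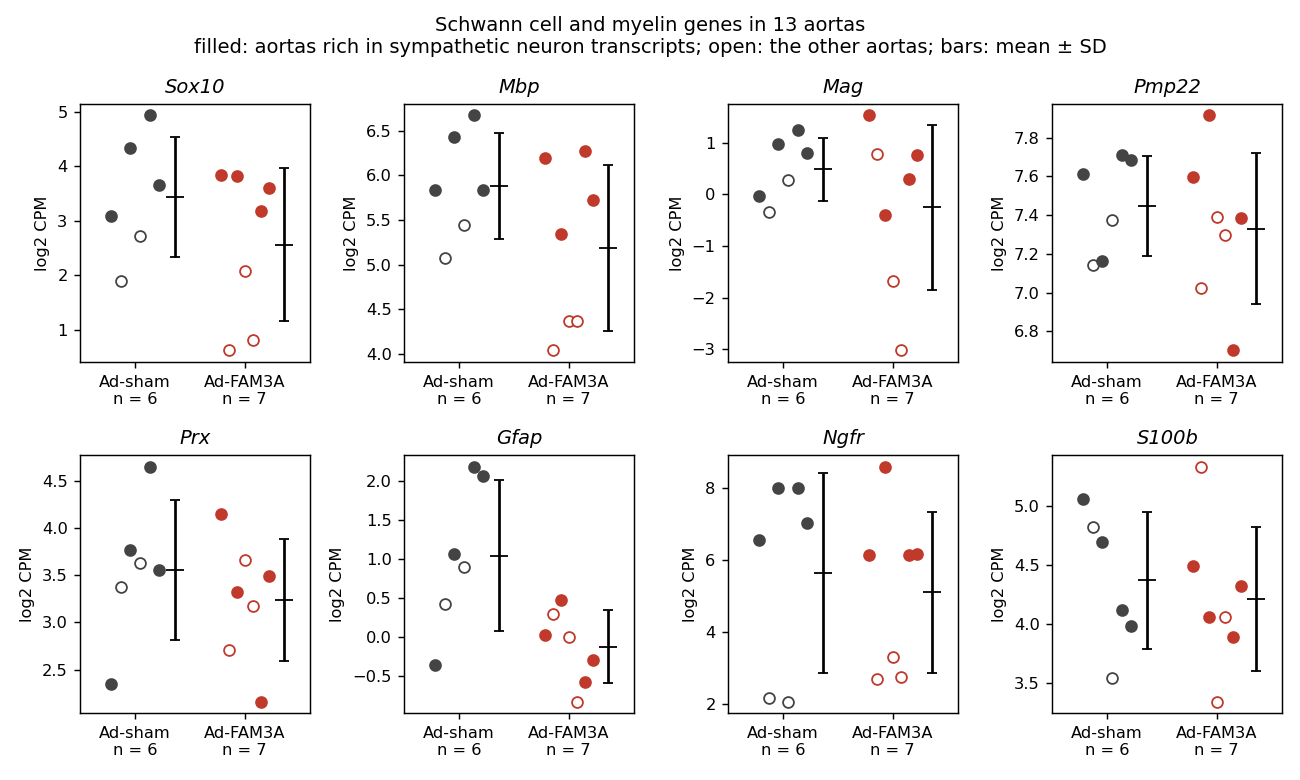
Level of each of the 8 genes in log2 CPM (vertical axis) in the 6 Ad-sham and 7 Ad-FAM3A aortas (horizontal axis), 1 point per aorta, with the mean ± SD beside each group. Filled points are neuron-rich and open points neuron-poor aortas: for Ngfr the 5 open points lie apart from the 8 filled ones in both groups, while for Gfap the Ad-sham points reach above all Ad-FAM3A points.

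Over the whole table no gene passed an adjusted p of 0.05 between the virus groups in edgeR's quasi-likelihood test (0 of 15811, 0%). Before adjustment 934 genes had a p under 0.05 (5.91%), with 463 lower (2.93%) and 471 higher (2.98%) in Ad-FAM3A. DESeq2 called 10 genes and limma-voom 0, and none of the 10 was among the 7 members tested. Leaving Gfap aside, none of the other 7 members was called. The groups overlapped for all 8 members, while they did not overlap for 15 of all genes tested (0.0949%). For the 7 members other than Gfap, all log2 fold changes were below 0, as were 49.6% of those of all genes tested. These 7 ran from -0.75 for Sox10 to -0.09 for Pmp22, with Prx, at -0.36, in the middle. The median over all genes was 0.0032. Each median of the members, here and below, includes Gfap. That median was -0.42, and it was -0.19 without Ad-sham5 and -0.27 without Ad-sham3, the 2 aortas with the most Sox10. Gfap was named for its direction, so neither its sign nor its pull on that median is a finding. Members that vary together do not count as separate observations.

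**Figure D2:**
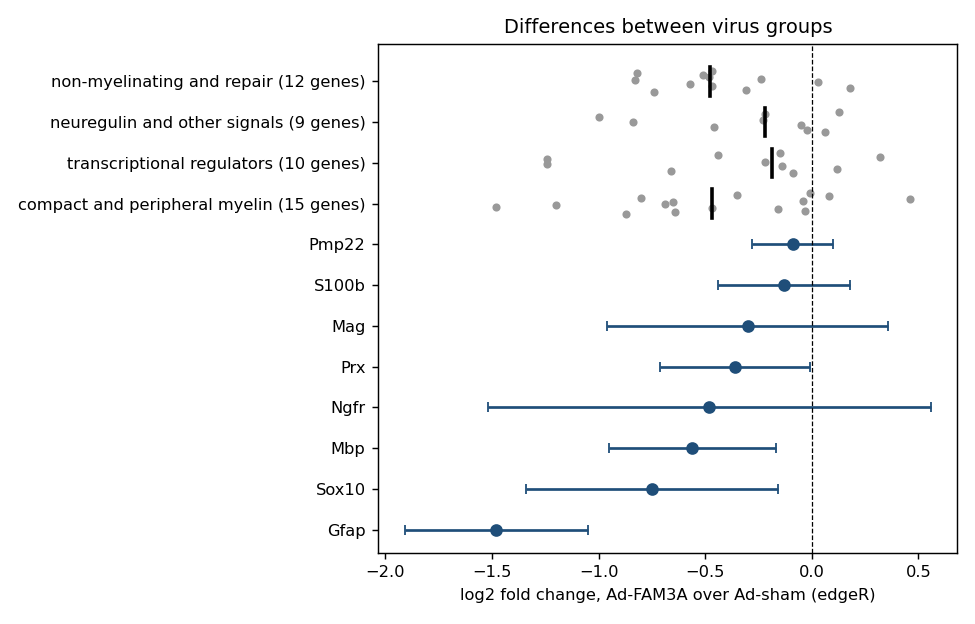
Log2 fold change of Ad-FAM3A over Ad-sham (horizontal axis) for the 8 members with the standard error as bars, and for the tested genes of 4 further Schwann cell lists as grey points with the list median as a black line. The 8 members lie between -1.48 and -0.09, and 38 of the 46 grey points are below 0.

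A wider set of 54 genes of the lineage, in 4 lists by function, was read from the same fit. Of these, 46 passed the filter, 38 were lower and 8 higher in Ad-FAM3A by sign alone, with a median log2 fold change of -0.40. None was called, and none had an unadjusted p under 0.05. In the list of compact and peripheral myelin 13 of 15 tested genes were below 0. Among those farthest below were the gap junction gene Gjc3 (-1.20, standard error 0.70), the adhesion gene Cadm4 (-0.80, standard error 0.46) and the tight junction gene Cldn19 (-1.48, standard error 0.83). Each was highest in Ad-sham5, and Cldn19 had at most 78 reads in an aorta. Cnp, Ndrg1 and Ugt8a lay near 0, at -0.03, -0.01 and -0.04. Gldn, a gene of the node of Ranvier, was at 0.46 (standard error 0.34). In the list of transcriptional regulators 8 of 10 were below 0, with Foxd3, a neural crest factor, at -1.24 (standard error 0.61) and Egr2, the regulator of myelination that acts with Sox10, at -0.09 (standard error 0.30). Of the signals between axon and Schwann cell 7 of 9 were below 0, and the neuregulin receptor genes Erbb3 and Erbb2 were at -0.46 and -0.02. Of the non-myelinating and repair genes 10 of 12 were below 0, with Cdh19 at -0.74 and Jun, listed with the regulators, at -0.44.

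Lists of other cell types differed in sign between the groups. All 16 sympathetic neuron genes were below 0, and their summed level ran from 88.2 to 3188 CPM in Ad-sham and from 159 to 3741 CPM in Ad-FAM3A aortas. All 12 adipocyte genes were below 0 as well, with sums from 5844 to 15954 CPM in Ad-sham and from 4549 to 10310 CPM in Ad-FAM3A aortas. The other way, all 10 smooth muscle, all 10 B cell and all 10 T cell genes were above 0, with medians of 0.33, 2.48 and 1.25, and all 10 B cell genes had an unadjusted p under 0.05. Ad-FAM3A6 and 7 carried the B cell difference: the other 5 Ad-FAM3A aortas had sums of 60.9 to 202 CPM, against 95.8 to 361 CPM in Ad-sham. The T cell sums of those 5 were 14.6 to 45.2 CPM, within the Ad-sham range of 16.3 to 304 CPM but for Ad-FAM3A4 and 5. Of the adipocyte genes 4 of 12 had an unadjusted p under 0.05, all lower. Of the fibroblast genes, a list that Pmp22 varied with across aortas, 9 of 10 were below 0 (median -0.24), as were 8 of 11 endothelium genes (median -0.16), while 7 of 8 skeletal muscle genes were above 0 (median 0.39). No gene of these lists was called. Without Ad-FAM3A6 and 7 the median of the members was -0.41. With the neuron list as a covariate the median of the members was -0.30, and with the adipocyte list it was -0.51. Beyond these values, the part of other cells in the members' levels was not tested.

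Across aortas the members did not vary as 1 group. Of 28 pairs of members, 1 had an adjusted p under 0.05, Sox10 with Mbp. Over the 13 aortas Pearson's r of their log2 CPM was 0.91 (permutation p = 3e-05, adjusted 0.00084) and Spearman's rho was 0.85 (permutation p = 0.00045, adjusted 0.0126). Without Ad-FAM3A2 and 5, the 2 aortas farthest from the Sox10 median, r was 0.82. Within the virus groups r was 0.98 in Ad-sham (n = 6, permutation p = 0.00139) and 0.87 in Ad-FAM3A (n = 7, permutation p = 0.0230). Within the 8 neuron-rich aortas r was 0.56 (permutation p = 0.149), so there the relation could not be shown.

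No other pair with Sox10 passed. For Mag r was 0.63 over the 13 aortas (permutation p = 0.0201, adjusted 0.188) and rho was 0.65 (permutation p = 0.0194, adjusted 0.181), and with 1 aorta left out r ran from 0.45 without Ad-FAM3A5 to 0.87 without Ad-FAM3A2. Ad-FAM3A2 had 26 reads of Mag with only 23 of Sox10. For Prx r was 0.49 (permutation p = 0.0920, adjusted 0.368), for Pmp22 0.46 (permutation p = 0.113, adjusted 0.397) and for S100b -0.16 (permutation p = 0.590, adjusted 0.814), and the rho values were 0.59, 0.55 and -0.02. Within the 8 neuron-rich aortas r with Sox10 was 0.89 for Prx (exact permutation p = 0.00466, unadjusted), 0.56 for Mag, 0.30 for Pmp22 and -0.15 for S100b. The levels of Gfap and Ngfr fell into separate clusters, so no value over all aortas is given for them. Over the 11 aortas other than Ad-sham5 and 6, r of Gfap with Sox10 was 0.30 (permutation p = 0.360). Within the 8 neuron-rich aortas, which include Ad-sham5 and 6, it was 0.74 (exact permutation p = 0.0322, unadjusted). Over the 8 neuron-rich aortas r of Ngfr with Sox10 was 0.64 (permutation p = 0.0908).

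**Figure D3:**
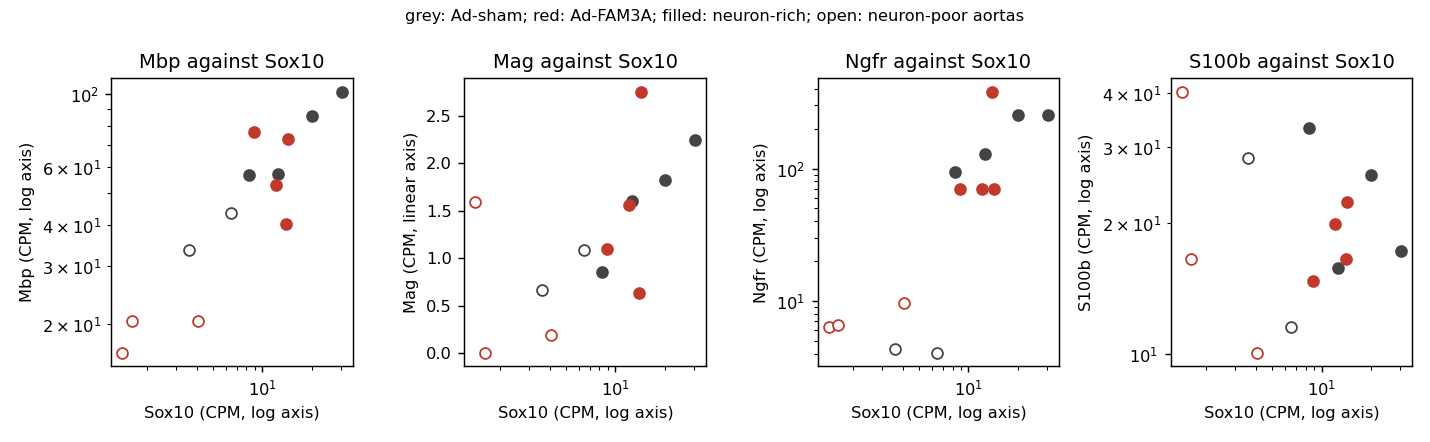
Levels of Mbp, Mag, Ngfr and S100b (vertical axes) against Sox10 (horizontal axes) in CPM, all axes logarithmic except that of Mag, which is linear since 1 aorta is at 0, 1 point per aorta, grey for Ad-sham and red for Ad-FAM3A, filled for neuron-rich and open for neuron-poor aortas. Mbp rises with Sox10 (r = 0.91 on log2 values), Mag has r = 0.63, which did not pass after adjustment, Ngfr forms a low and a high cluster, and S100b shows no slope (r = -0.16).

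As a description over the 13 aortas, the genes were ranked by Pearson's r with Sox10. Among the first 50 of the 15810 other tested genes were Gpr37l1, a receptor of glia, at rank 4, the potassium channel gene Kcna1 at 6, Plekhb1 at 16, Erbb3 at 19, Foxd3 at 20, the collagen gene Col28a1 at 23, Lgi4, a secreted signal of Schwann cells, at 28, Cadm4, an adhesion protein that faces the axon, at 33 and Mbp at 49. Of the other members, Mag ranked 1300, Prx 2126, Pmp22 2303 and S100b 10286. Ngfr and Gfap would stand at 208 and 1862, but ranks over all aortas rest on their separate clusters. The ratio of Mbp to Sox10 per length stayed between 1.045 and 4.49 over all 13 aortas, while that of S100b to Sox10 ran from 1.16 to 57.4.

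The genes nearest to each member by the same measure differed from one member to the next. Those of Sox10 included Epb41l4b, Nrg2, Gpr37l1 and Acsbg1 (r from 0.952 to 0.963), and those of Mbp included Cadm4, Sostdc1, Nrg2 and Nxpe4 (0.916 to 0.951), with Nrg2, a neuregulin, in both. Those of Pmp22 were Dync1li2, B3galnt1, Gnaq, Lrrc49 and the fibrillar collagen gene Col3a1 (0.877 to 0.941). Those of S100b were Hint3, Pemt, Fahd2a, Ndufaf5 and Mettl22 (0.893 to 0.947), and those of Prx were Adgra2, Col16a1, Palm, Ephb4 and Mtss1l (0.934 to 0.938), where Adgra2 and Ephb4 are receptors known from endothelium. Those of Mag were Vtn, Qprt, Stap2, Paqr7 and Sh3tc1 (0.858 to 0.886). For Ngfr they included Mapk8ip2, Slc29a4, D130043K22Rik and Chrnb4, of which Chrnb4 is a subunit of the ganglionic acetylcholine receptor, and for Gfap Mindy1, Nat8f1, Lmtk3, Gprc5c and Ankrd34a. No r is given for those of Ngfr and Gfap because of their clusters. These rankings are the highest of 15810 values each and carry no test.

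The members were then set against marker lists of 13 other cell types. Of 103 pairs with a value, 6 had an adjusted p under 0.05 by Pearson's r, and none had one by Spearman's rho, where the adjusted p of the same 6 ran from 0.0989 to 0.143. Ngfr followed the sympathetic neuron list within the 8 neuron-rich aortas, with r = 0.97 (exact permutation p = 0.000298, adjusted 0.0113). Pmp22 followed the fibroblast list, with r = 0.82 over the 13 aortas (permutation p = 0.00069, adjusted 0.0142). It was 0.78 within Ad-sham, 0.84 within Ad-FAM3A and 0.93 within the neuron-rich aortas. Without Ad-FAM3A6, the aorta lowest in Pmp22, it was 0.69.

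Sox10 and Mbp followed the astrocyte and satellite glia list, with r of 0.84 and 0.86 (adjusted permutation p = 0.0113 for both), and the perineurium list, whose genes mark the sheath around nerve bundles, with r of 0.89 and 0.86 over the 10 aortas of its larger cluster (adjusted permutation p = 0.0142 and 0.0347). Within the neuron-rich aortas the values with the glia list were 0.07 and 0.24 and those with the perineurium list 0.66 and 0.44 (exact permutation p = 0.0819 and 0.267 for the latter), so neither relation could be shown there. S100b was highest with the white and brown adipocyte list, at r = 0.75 (permutation p = 0.00383, adjusted 0.0564) and rho = 0.66 (permutation p = 0.0160, adjusted 0.165), which did not pass. Its r was 0.91 within Ad-sham, 0.64 within Ad-FAM3A and 0.93 within the neuron-rich aortas. Sox10, by contrast, had r = -0.08 with that list. Prx had r = 0.58 with the endothelium list and 0.64 with the fibroblast list, neither of which passed (adjusted permutation p = 0.230 and 0.157). Within 1 virus group alone, 0 of the pairs had an adjusted p under 0.05, but 6 Ad-sham aortas cannot give a permutation p below 0.00139, so after adjustment over this many pairs that count says little.

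**Figure D4:**
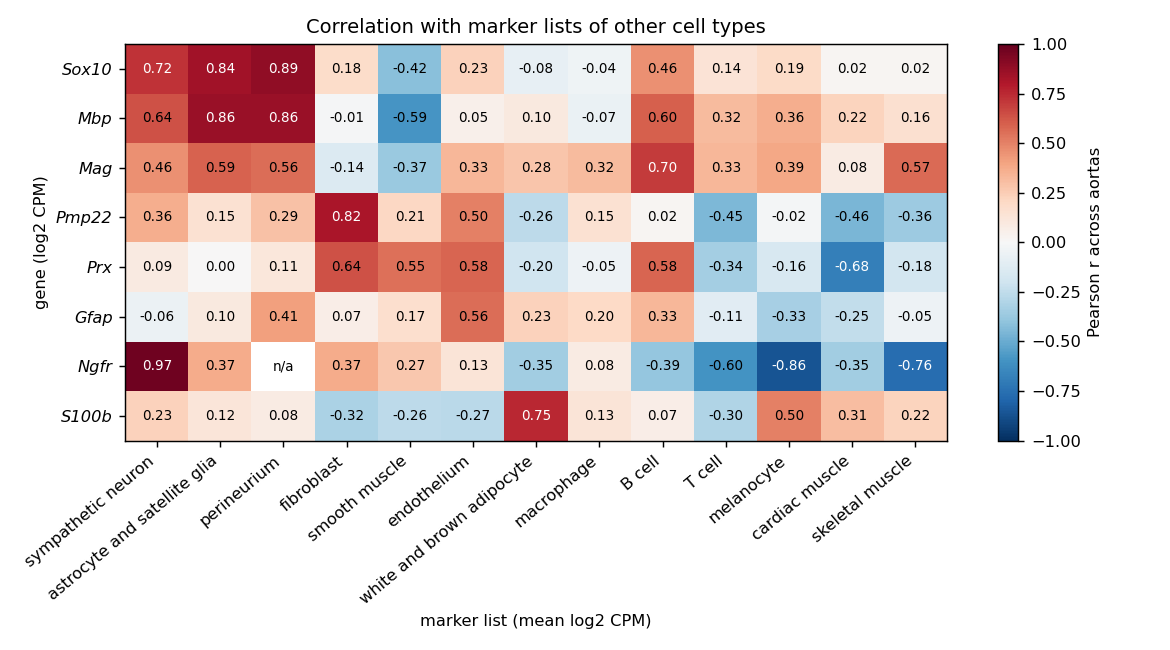
Pearson's r across aortas between each member (rows, log2 CPM) and the mean log2 CPM of marker lists of 13 other cell types (columns), from -1 in blue to 1 in red, with n/a where too few aortas were left. The highest value is with perineurium for Sox10 (0.89), with fibroblast for Pmp22 (0.82), with sympathetic neuron for Ngfr (0.97) and with adipocyte for S100b (0.75).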

How the data were processed

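Total RNA of 13 aortas was sequenced, 1 library per mouse. Per the study's methods, the authors dropped reads of low quality, used Hisat2 for alignment to GRCm38 and FeatureCounts for counting per gene, with the annotation release, strand setting and treatment of multi-mapping reads not given in the sources used here. The deposited values are raw counts per gene and aorta, and a second deposited table holds the authors' mean FPKM per virus group. The labels name an RNeasy and SMARTer workflow, the methods TRIzol and a New England Biolabs kit, which could not be reconciled. Counts were filtered with filterByExpr, scaled by TMM and tested with edgeR 4.0.16 (quasi-likelihood test, Benjamini-Hochberg adjustment over 15811 genes, no covariate) in R 4.3.3, and DESeq2 1.42.0 and limma 3.58.1 were alternatives. For correlations, log2 CPM with a prior count of 2 was used, with two-sided permutation tests (100000 resamples, or exact enumeration for 8 or fewer aortas). Where a gap above 33.3% of the range left at least 2 aortas on each side, r was computed within the larger cluster.

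Libraries held 14481179 to 19797407 counts, which leaves few reads for Gfap and Mag. No 2 libraries of a group were duplicates (lowest chi-square per degree of freedom 44.5). Mice are separate per the labels. On simulated counts of 15811 genes for Ad-FAM3A against Ad-sham, 27 of 100 genes were called whose simulated log2 change was 1, and 74 of 100 where it was 2. The members and gene lists were chosen with earlier results of these data known. Named are the members, the genes of the lists, the 5 genes nearest to each member by r, and Fam3a, except some that are not reported here. Alternatives covered scaling, filtering, the tool, the replicate number as a block, left-out aortas and list covariates.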

Additional observations from a re-analysis of the deposited data

How the results depend on the processing

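Gfap aside, which was not tested, no member and no gene of the wider Schwann cell lists was called under any alternative run, and over all genes DESeq2 called 10 where the other settings called 0. The replicate numbers did not pair the aortas, with correlations of deviations between -0.367 and 0.494, and with the replicate block 0 genes were called and 620 had an unadjusted p under 0.05 against 934 without it. With the block the median of the members was -0.60 and Gfap was at -1.20. Leaving out 1 aorta moved the members' median between -0.61 and -0.19 and Gfap between -1.67 and -1.20. Some small log2 fold changes changed sign: S100b was 0.02 without Ad-sham replicate 1 (-0.38 to 0.02 with 1 aorta left out), 0.27 with the adipocyte covariate and 0.20 in the neuron-poor aortas, where Pmp22 was 0.02 and Ngfr 0.88. Without Ad-sham5 and 6 Pmp22 was 0.03 and Mag 0.01, and Gfap moved to -0.74. The causes were not tested.

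The count of Sox10 correlations with an adjusted p under 0.05 was 1 over all aortas. It was 2 in Ad-sham alone, without Ad-FAM3A replicate 2 and without the 2 farthest aortas, and 0 in Ad-FAM3A alone and in the neuron-rich aortas, where fewer aortas entered. Leaving out 1 aorta gave 1 to 2. The r of Sox10 with S100b was 0.18 without Ad-FAM3A replicate 2 (-0.31 to 0.18 with 1 aorta left out). The count of list correlations was 6, from 4 to 7 with 1 aorta left out, and 0 in Ad-sham alone, in Ad-FAM3A alone and without the 2 farthest aortas, where fewer aortas entered. The neuron-rich and neuron-poor comparisons and the one without Ad-sham5 and 6 were chosen after seeing the data. Depth limits Gfap, with 6 to 94 reads per aorta, and Mag, with 0 to 48.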

Other observations

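Ad-sham4 had the lowest mean log2 CPM over the 16 sympathetic neuron genes, -0.39, although by summed level Ad-sham2, at 88.2 CPM, was below its 101 CPM. It had no read of Dbh, the enzyme that makes noradrenaline. Its Schwann cell genes were present all the same, with Sox10 at 6.48 CPM, Mbp at 43.4 CPM and Gfap at 1.73 CPM, each the highest of the 5 neuron-poor aortas. Ad-FAM3A2 and 5 had more neuron RNA, with means of 3.26 and 2.22, and less Sox10, at 1.41 and 1.62 CPM. Among these 5 aortas, then, the order by neuron genes was not the order by Sox10.

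Fabp7, a lipid-binding protein of immature Schwann cells and satellite glia, was one of the most variable glial genes, from 0.314 to 39.6 CPM. Relative to Sox10 per length it ran from 0.205 to 66.9 in Ad-FAM3A aortas and from 0.421 to 9.001 in Ad-sham aortas. The value of 66.9 was that of Ad-FAM3A2, the aorta with the least Sox10, and the next highest Ad-FAM3A value was 6.4. The ranges overlapped, and the groups differed by 0.03 on the log2 scale (standard error 0.95).

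No value of the members stood out as an outlier within its virus group, in 16 groups of values examined by Dixon's criterion.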
